A study of Homo sapiens with 12 samples.

Results

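The genes described here are 38 interferon-stimulated effector genes, taken as a list of named genes. The list was chosen with earlier results of these data known. All 38 were on the array, each read through the probe set listed for that gene alone with the highest mean over the 12 arrays, and they were tested among 11963 genes in all. The RNA came from MDA-MB-231, an established human breast cancer cell line with mesenchymal features. For 24 h the cells received the vehicle DMSO alone, SAHA at 5 uM, pargyline at 2.5 mM, or both drugs at these doses (the group COMBO of the labels). SAHA, also called vorinostat, blocks histone deacetylases and so keeps acetyl groups on histones and other proteins. Pargyline blocks monoamine oxidases and is also used against LSD1, a related enzyme that removes methyl groups from histones. Each of the 4 groups held 3 biological replicates, and the labels name no added interferon in any of them. The design sets each drug, and the combination, against DMSO and against each other.

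Interferons are secreted proteins that bind receptors on the cell surface and activate the kinases JAK1 and TYK2, which phosphorylate STAT proteins. A complex that contains IRF9 then binds the interferon-stimulated response element in the promoters of many genes. Their products, the effectors, bind or degrade viral RNA, block entry and assembly of viruses, tag proteins with the ubiquitin-like protein ISG15, or feed back on the pathway. Many cancer cell lines keep part of this program switched on without added interferon.

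The response element was looked up in the promoters of the 38 genes, because it is the sequence that the group is known to share and the rule that chose the genes did not use it. Windows from 250 bases before to 50 bases after the start of transcription (RefSeq, GRCh38.p14) were at hand for 30 of the 38 genes, not for GBP2, IFIT2, IFITM2, MX2, OAS2, OASL, TRIM22 and USP18. The stretches below are from 3 genes whose levels fell with SAHA (IFIT3, IFI44, GBP1), 2 whose levels rose (ISG15, IFI6) and 2 that did not pass (IFIT1, BST2). Capitals mark matches to the element's core, which is GAAA, any 2 bases and GAAA again, or its reverse complement, and each stretch is written in the direction of transcription.
IFIT3, chr10:89327821-89327904, plus strand: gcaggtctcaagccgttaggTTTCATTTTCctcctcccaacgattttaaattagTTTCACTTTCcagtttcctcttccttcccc
IFI44, chr1:78649751-78649788, plus strand: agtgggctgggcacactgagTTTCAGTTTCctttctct
GBP1, chr1:89065306-89065355, minus strand: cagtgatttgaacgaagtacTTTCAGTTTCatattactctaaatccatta
ISG15, chr1:1013364-1013419, plus strand: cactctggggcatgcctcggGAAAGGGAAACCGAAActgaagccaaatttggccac
IFI6, chr1:27672256-27672368, minus strand: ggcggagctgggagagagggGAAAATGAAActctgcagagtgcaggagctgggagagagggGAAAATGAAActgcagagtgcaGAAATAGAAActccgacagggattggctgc
IFIT1, chr10:89392487-89392549, plus strand: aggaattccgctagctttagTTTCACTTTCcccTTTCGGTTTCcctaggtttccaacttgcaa
BST2, chr19:17405725-17405780, minus strand: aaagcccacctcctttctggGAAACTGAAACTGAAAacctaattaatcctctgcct
Paired or repeated cores stand in genes of all 3 kinds. In ISG15 and BST2 the marked run holds 2 overlapping matches, and IFI6 holds 3 separate ones.

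On either strand, this core was found in 20 of the 30 genes with a window, which is 66.7%, against 4.38% of 27305 genes with a window in the whole table. Of 15 genes with a window that fell with SAHA, 9 had a match, of 4 that rose 2 had one, and of 11 that did not pass 9 had one. The STAT site core TTCNNNGAA, which reads the same on both strands, was found in 7 of the 30 (23.3%), against 9.38% of all genes. Its 7 genes were MX1, SP110 and IFI35, which fell with SAHA, and IFITM1, OAS1, IFI27 and BST2, which did not pass. These are matches of letters in short windows and show no binding of a factor.

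**Figure D1:**
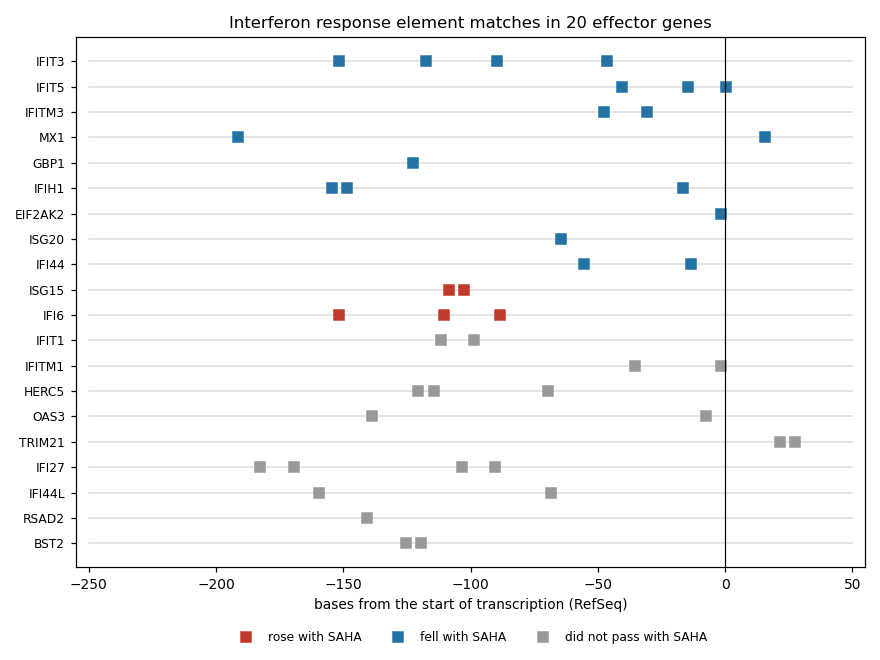
Position of each match to the response element core, on either strand, in the promoter windows of the 20 effector genes with at least 1 match. The horizontal axis is the distance in bases from the annotated start of transcription, each square is a match, and the colour gives the result of SAHA against DMSO: 9 genes that fell, 2 that rose and 9 that did not pass. Where a gene has several annotated starts, each match is placed from its own start, so the 2 squares of IFI44 are 1 site and the 4 of IFI27 are 2 sites seen from 2 starts. Most matches lie before the start in genes of every colour.

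The median log2 value of an array was between 5.148 and 5.376. Of 6 markers of the cell line (VIM, CD44, CAV1, AXL, MSN and ANXA1), the group means with DMSO ran from 13.06 to 14.90, while 9 measured leukocyte markers had group means between 1.43 and 2.67 in all 4 groups. The mean over the 6 cell line markers was 14.09 to 14.14 on the DMSO arrays and 14.03 to 14.13 with pargyline, but 13.11 to 13.32 with SAHA and 13.19 to 13.28 with both drugs. The mean over 7 luminal markers was 5.16 to 5.19 with DMSO, 4.99 to 5.06 with pargyline, 3.92 to 4.02 with SAHA and 3.67 to 3.86 with both drugs. With SAHA 4 of the 6 cell line markers and 3 of the 7 luminal markers fell, where 23.1% of all genes did. VIM and ANXA1 had group means of 14.90 and 14.54 with DMSO and 14.88 and 14.57 with SAHA. The 3 luminal markers were ERBB2, GATA3 and EPCAM, at 8.28, 9.23 and 8.42 with DMSO and 5.19, 6.27 and 5.94 with SAHA. The other 4 luminal markers had group means from 2.11 to 3.11 with DMSO. The mean over 5 fibroblast markers was 3.43 to 3.55 on all arrays. The part of these shifts in the results below was not tested.

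SAHA alone lowered a large share of the effector genes and raised a few. Of the 38, 19 fell, 5 rose and 14 did not pass, where 23.1% of all genes tested fell and 23.0% rose. Their median log2 fold change was -0.54, and that of all 11963 genes was 0.00. The 5 that rose were IFI6, UBE2L6, GBP2, ISG15 and SAMHD1, and the 4 with the largest falls were IFIT3, IFIT2, IFI35 and IFI44. In bulk RNA, fewer cells with a transcript and less of it per cell cannot be told apart.

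Pargyline alone acted on fewer of them, mostly upward. In comparison with DMSO, 8 rose, 1 fell and 29 did not pass, where 8.48% of all genes rose and 7.45% fell. The median over the 38 was 0.19, against -0.02 over all genes. GBP2, ISG20, UBE2L6, OAS1, IFI6, GBP1, OASL and IFI35 rose, and SAMHD1 fell. The count of 8 fell to 5 when DMSO replicate 2 or DMSO replicate 3 was left out. The share of all genes that rose in those runs is not given here. After each array was centred on its median, 9 rose and 8 fell, where 7.29% of all genes rose and 51.6% fell, because that scaling moved the median over all genes from -0.02 to -0.15. With the replicate number as a block, 11 rose and 1 fell, where 10.1% and 9.37% of all genes did.

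With both drugs, 6 genes rose, 17 fell and 15 did not pass against DMSO, where 24.3% of all genes rose and 24.0% fell. The median was -0.30, against -0.01 over all genes (-0.17 after centring, when 5 rose and 29 fell, where 20.9% of all genes rose and 62.9% fell). The comparisons with DMSO share the DMSO arrays, so each is given by its own values below.

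**Figure D2:**
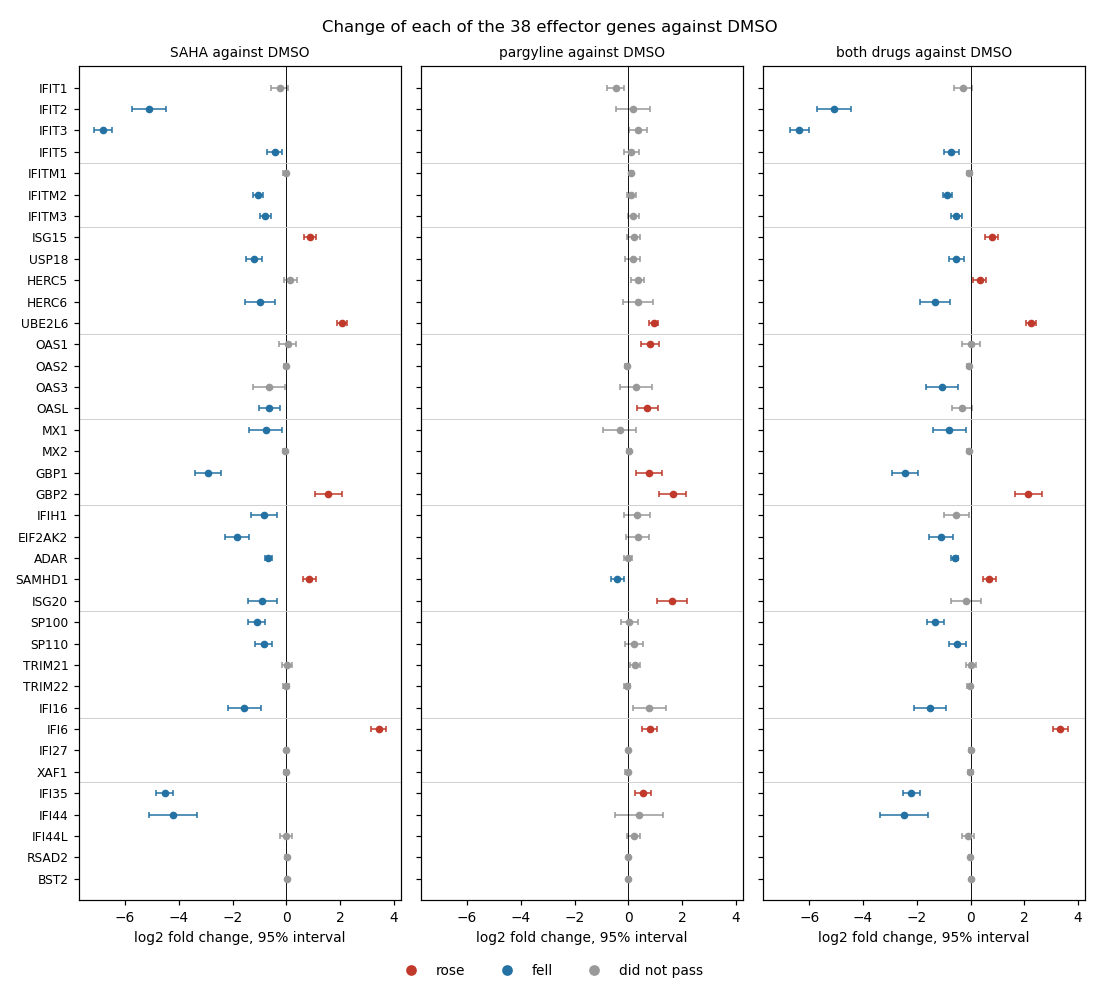
Log2 fold change of each of the 38 effector genes against DMSO with SAHA, pargyline or both drugs, as points with 95% intervals of the fit (n = 3 arrays per group). Red marks genes that rose, blue genes that fell and grey genes that did not pass, and thin lines separate the groups of genes by role. The points of 8 genes with array values between 1.55 and 3.03 lie near 0 in all 3 panels.

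Some of the genes were dim throughout. For 16 of the 38 the highest group mean was below 7.06, which is the middle of the genes' mean log2 values. Among these, 8 (IFITM1, OAS2, MX2, IFI27, XAF1, IFI44L, RSAD2 and BST2) stayed under 2.79, the lower tertile of the genes' means, in every group, with array values from 1.55 to 3.03. None of these 8 rose or fell against DMSO in limma (at an unadjusted p under 0.05, 1 was higher with pargyline, IFITM1, and 0 were higher or lower otherwise), and values at that level hold little information on a change. Above the level of 7.06 in their highest group, 2 genes, IFIT1 and HERC5, did not pass with SAHA.

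The IFIT proteins bind foreign RNA and hold back its translation, and their genes lie beside each other on chromosome 10 in the order IFIT2, IFIT3, IFIT1, IFIT5. IFIT3 read 9.11, 8.88 and 8.68 in the 3 DMSO replicates, 2.02, 2.00 and 2.20 with SAHA, 9.54, 9.14 and 9.05 with pargyline, and 2.31, 2.69 and 2.57 with both drugs. Every array with SAHA was thus at the bottom of the scale, and the pargyline arrays overlapped the DMSO arrays. Its log2 fold change with SAHA was -6.82 ± 0.15 (SE, n = 3 per group; adjusted p = 2.47e-09 in limma), a 113-fold lower value, and with both drugs -6.37 ± 0.15 (adjusted p = 4.16e-09). Since IFIT3 ended at the level of the 8 dimmest genes, the size of the fold rests on how the authors' method models low signal.

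IFIT2 showed a similar split. It read 7.85, 7.75 and 7.65 with DMSO, 2.25, 3.41 and 2.24 with SAHA, 7.90, 7.71 and 8.18 with pargyline, and 2.66, 2.53 and 2.87 with both drugs. SAHA replicate 2 was higher than the other two, yet far below every array without SAHA. The log2 fold change was -5.12 ± 0.28 with SAHA (adjusted p = 3.95e-07) and -5.06 ± 0.28 with both drugs (adjusted p = 3.61e-07).

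IFIT1 did not pass in any comparison with DMSO. It read 10.95, 10.79 and 10.47 with DMSO, 10.56, 10.22 and 10.69 with SAHA, 10.25, 10.32 and 10.21 with pargyline, and 10.54, 10.31 and 10.52 with both drugs. The groups overlapped for SAHA and for both drugs, while all pargyline arrays were below all DMSO arrays. Its log2 fold change was -0.25 with SAHA (95% interval -0.57 to 0.08, adjusted p = 0.218), -0.28 with both drugs (adjusted p = 0.15) and -0.48 with pargyline (adjusted p = 0.0514). Without DMSO replicate 3, which was the lowest of its group, all 3 passed with adjusted p of 0.0456, 0.0311 and 0.0171, at -0.38, -0.41 and -0.61. The difference with pargyline also passed with quantile normalization (adjusted p = 0.0459) and after centring (0.0102).

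IFIT5 read 10.41 to 10.48 with DMSO, 9.74 to 10.25 with SAHA, 10.46 to 10.61 with pargyline and 9.61 to 9.96 with both drugs. It fell by 0.43 ± 0.13 with SAHA (adjusted p = 0.019) and by 0.71 ± 0.13 with both drugs (adjusted p = 0.00097). The fall with SAHA alone did not pass without DMSO replicate 3 (adjusted p = 0.0552) or SAHA replicate 2 (0.0596), or with the mean of the gene's 2 probe sets (0.0539). Within 1 gene cluster, then, 2 genes went to the bottom of the scale, 1 fell by less than 2-fold and 1 did not pass.

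**Figure D3:**
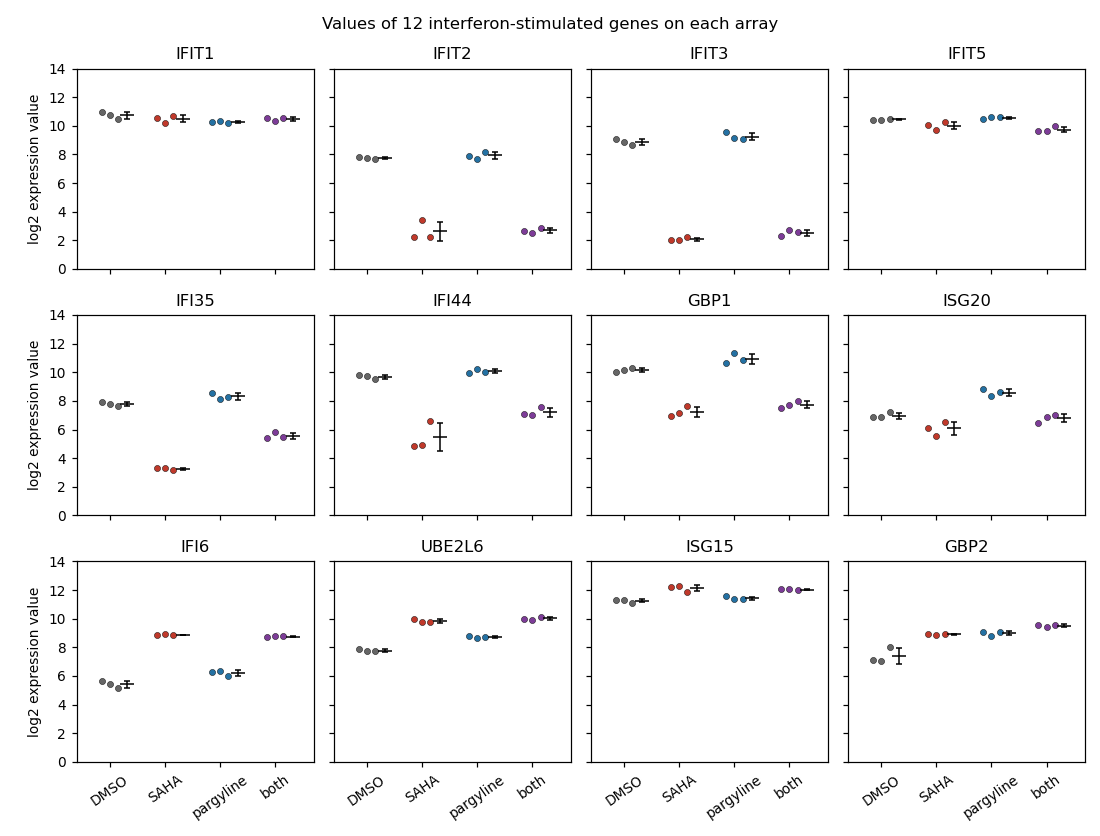
Log2 expression values of 12 effector genes on each of the 12 arrays, with the group mean and SD beside the 3 points of each group. IFIT2, IFIT3, IFI35, IFI44 and GBP1 are low in both groups that received SAHA, IFI6, UBE2L6 and ISG15 are high in both, and ISG20 is high with pargyline alone. IFIT1 stays between 10.21 and 10.95 on all arrays.

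IFITM2 and IFITM3 encode membrane proteins that hinder the fusion of viruses with the cell. IFITM3 read 12.55, 12.52 and 12.53 with DMSO, 11.85, 11.75 and 11.67 with SAHA, 12.88, 12.51 and 12.75 with pargyline, and 12.04, 12.06 and 11.92 with both drugs. The arrays with SAHA were all below the arrays without it. It fell by 0.78 ± 0.09 with SAHA (adjusted p = 3.83e-05), and IFITM2 fell by 1.06 ± 0.08 (adjusted p = 2.92e-06). With both drugs the falls were 0.52 and 0.86. The probe sets of these 2 genes are of a kind that can also bind transcripts of close relatives, so the genes may not have been read apart. IFITM1 was at 1.88 to 2.10 on all arrays.

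The genes for ISG15 and the enzymes that attach and remove it did not move as one. ISG15, the ubiquitin-like modifier, read 11.31, 11.32 and 11.13 with DMSO, 12.23, 12.26 and 11.87 with SAHA, 11.56, 11.38 and 11.38 with pargyline, and 12.07, 12.06 and 11.97 with both drugs. It rose by 0.87 ± 0.10 with SAHA (adjusted p = 6.2e-05) and by 0.78 ± 0.10 with both drugs (adjusted p = 0.000115), with no overlap between groups. UBE2L6, the enzyme that carries ISG15 to its targets, read 7.86, 7.71 and 7.75 with DMSO, 9.98, 9.76 and 9.77 with SAHA, 8.78, 8.63 and 8.73 with pargyline, and 9.98, 9.93 and 10.14 with both drugs. It was lowest with DMSO, intermediate with pargyline and highest in both groups with SAHA. It rose by 2.06 ± 0.08 with SAHA (adjusted p = 4.4e-08), by 0.94 ± 0.08 with pargyline (adjusted p = 0.000145) and by 2.24 ± 0.08 with both drugs (adjusted p = 2.31e-08).

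USP18, which removes ISG15 and restrains interferon receptor signalling, read 6.95, 6.82 and 6.79 with DMSO, 5.86, 5.61 and 5.47 with SAHA, 6.90, 7.23 and 6.91 with pargyline, and 6.47, 6.14 and 6.34 with both drugs. The combination lay between SAHA and DMSO without touching either. USP18 fell by 1.21 ± 0.13 with SAHA (adjusted p = 2.66e-05) and by 0.53 ± 0.13 with both drugs (adjusted p = 0.00528), and was 0.67 ± 0.13 higher with both drugs than with SAHA alone (adjusted p = 0.00662). HERC5, the ligase for ISG15, differed from DMSO by 0.34 ± 0.10 with pargyline (adjusted p = 0.0531, but 0.0145 with the replicate block and 0.0384 without the lowest tertile of genes), with no overlap between groups. It rose by 0.34 ± 0.10 with both drugs (adjusted p = 0.0209), and this did not pass without DMSO replicate 3 (0.0802), COMBO replicate 1 (0.0782) or COMBO replicate 2 (0.0545), nor after centring (0.138). Its neighbour and relative HERC6 fell by 0.98 ± 0.25 with SAHA (adjusted p = 0.00904) and by 1.32 ± 0.25 with both drugs (adjusted p = 0.00135), from DMSO values of 6.23, 5.96 and 6.40.

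The oligoadenylate synthetases sense double-stranded RNA and make the messenger that activates RNase L, except OASL, which lacks that activity. OASL read 7.95, 7.72 and 7.49 with DMSO, 7.16, 7.37 and 6.71 with SAHA, 8.48, 8.48 and 8.31 with pargyline, and 7.48, 7.50 and 7.21 with both drugs. Pargyline arrays were the highest, and all SAHA arrays lay below all DMSO arrays. OASL fell by 0.64 ± 0.17 with SAHA (adjusted p = 0.0116) and rose by 0.70 ± 0.17 with pargyline (adjusted p = 0.0224). The rise did not pass without DMSO replicate 2 or 3 or without pargyline replicate 1 or 2, with adjusted p of 0.0667, 0.067, 0.0668 and 0.065.

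OAS1 was dim, at 2.98 to 3.06 on the 9 arrays that did not receive pargyline alone. With pargyline alone it read 4.14, 3.40 and 3.84, all above the rest, a rise of 0.81 ± 0.14 (adjusted p = 0.00521), and its further probe set gave 1.56 ± 0.29. With both drugs it read 2.99, 3.01 and 3.03. OAS3 read 5.37, 5.62 and 5.72 with DMSO, 4.98, 5.14 and 4.68 with SAHA, and 4.52, 3.93 and 5.03 with both drugs. It fell by 1.07 ± 0.26 with both drugs (adjusted p = 0.00658) and changed by -0.64 with SAHA without passing (adjusted p = 0.0787, but 0.0453 with quantile normalization). OAS2, the last of these neighbours on chromosome 12, was among the 8 dimmest genes.

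The guanylate-binding proteins GBP1 and GBP2 are GTPases that act on the membranes of pathogens, and their genes are neighbours on chromosome 1. GBP1 read 10.05, 10.15 and 10.30 with DMSO, 6.95, 7.14 and 7.62 with SAHA, 10.63, 11.32 and 10.84 with pargyline, and 7.53, 7.68 and 8.01 with both drugs. GBP2 read 7.08, 7.01 and 8.01 with DMSO, 8.96, 8.89 and 8.92 with SAHA, 9.09, 8.81 and 9.10 with pargyline, and 9.59, 9.39 and 9.53 with both drugs. So the arrays with SAHA, alone or combined, were the lowest for GBP1, while for GBP2 every treated array was above every DMSO array.

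GBP1 fell by 2.93 ± 0.22 with SAHA (adjusted p = 2.49e-06) and by 2.43 ± 0.22 with both drugs (adjusted p = 7.14e-06), and its further probe set gave -4.23 with SAHA. GBP1 rose by 0.76 ± 0.22 with pargyline (adjusted p = 0.0402), a call that was lost without DMSO replicate 1, 2 or 3, SAHA replicate 2, pargyline replicate 2 or 3, or COMBO replicate 2 (adjusted p from 0.0567 to 0.128). GBP2 rose by 1.56 ± 0.22 with SAHA (adjusted p = 0.000232), by 1.64 ± 0.22 with pargyline (adjusted p = 0.00145) and by 2.14 ± 0.22 with both drugs (adjusted p = 2.31e-05). DMSO replicate 3 stood apart from its group for GBP2.

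MX1, a GTPase that traps viral capsids, read 3.66, 2.40 and 3.17 with DMSO and 2.13, 2.36 and 2.43 with SAHA, so the groups overlapped at a dim level. Its fall of 0.77 ± 0.28 with SAHA (adjusted p = 0.0446) was lost under 10 of the 12 ways of leaving out an array, for example at adjusted p = 0.152 without DMSO replicate 1. Its fall of 0.79 with both drugs (adjusted p = 0.0379) was lost under 7 of them, with adjusted p from 0.0507 to 0.126. MX2 was at 1.83 to 2.02 on all arrays.

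Among the genes that sense, edit or degrade nucleic acids, EIF2AK2 encodes PKR, the kinase that stops translation when it binds double-stranded RNA. EIF2AK2 read 10.69, 10.81 and 10.97 with DMSO, 8.85, 8.67 and 9.42 with SAHA, 11.03, 11.34 and 11.12 with pargyline, and 9.43, 9.76 and 9.96 with both drugs. The SAHA arrays were the lowest and the combination lay just above them. It fell by 1.85 ± 0.20 with SAHA (adjusted p = 2.88e-05) and by 1.11 ± 0.20 with both drugs (adjusted p = 0.000827). IFIH1, the RNA sensor MDA5, fell by 0.82 ± 0.21 with SAHA (adjusted p = 0.00963) from 5.57, 5.20 and 5.68 with DMSO. ADAR, which edits adenosines in double-stranded RNA, fell by 0.67 ± 0.06 with SAHA (adjusted p = 9.37e-06) and by 0.59 ± 0.06 with both drugs (adjusted p = 1.95e-05).

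SAMHD1, which breaks down the nucleotides that viruses need, went the other way. It read 9.68, 9.77 and 9.85 with DMSO, 10.73, 10.57 and 10.57 with SAHA, 9.61, 9.30 and 9.16 with pargyline, and 10.53, 10.43 and 10.43 with both drugs. It rose by 0.85 ± 0.10 with SAHA (adjusted p = 7.25e-05) and by 0.70 ± 0.10 with both drugs (adjusted p = 0.000259). It fell by 0.41 ± 0.10 with pargyline (adjusted p = 0.0256), which was lost without DMSO replicate 2 or 3 or pargyline replicate 2 or 3 (adjusted p from 0.0742 to 0.0792).

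ISG20, an exonuclease that degrades RNA, read 6.84, 6.84 and 7.20 with DMSO, 6.10, 5.58 and 6.55 with SAHA, 8.81, 8.31 and 8.59 with pargyline, and 6.49, 6.86 and 7.04 with both drugs. Pargyline arrays were above all others, and the arrays with both drugs overlapped those with DMSO. ISG20 rose by 1.61 ± 0.25 with pargyline (adjusted p = 0.00246) and fell by 0.89 ± 0.25 with SAHA (adjusted p = 0.0131, but 0.0508 without DMSO replicate 3). With both drugs the difference from DMSO was -0.16 (95% interval -0.72 to 0.39). Its further probe set gave 1.86 with pargyline and -0.59 with SAHA.

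Of the 5 nuclear and TRIM genes, 3 fell with SAHA, where 23.1% of all genes did. IFI16, a nuclear sensor of DNA, read 10.03, 10.06 and 10.19 with DMSO, 8.26, 8.29 and 9.06 with SAHA, 10.79, 11.02 and 10.78 with pargyline, and 8.04, 8.62 and 9.09 with both drugs. Its arrays with SAHA were all below those without. It fell by 1.56 ± 0.27 with SAHA (adjusted p = 0.000804) and by 1.51 ± 0.27 with both drugs (adjusted p = 0.000885), and differed by 0.77 with pargyline without passing (adjusted p = 0.0879, but 0.0461 with the replicate block and 0.0464 after centring). SP100 and SP110, components of nuclear bodies, fell by 1.11 ± 0.14 and 0.84 ± 0.14 with SAHA (adjusted p = 0.000103 and 0.000737). SP100 fell by 1.32 ± 0.14 with both drugs (adjusted p = 2.67e-05) and SP110 by 0.49 ± 0.14 (adjusted p = 0.0162, but 0.0626 without COMBO replicate 1). TRIM21, a ubiquitin ligase that binds antibodies inside cells, read 6.32 to 6.76 on all arrays. It differed by 0.25 with pargyline without passing (adjusted p = 0.0632, but 0.00808 with the replicate block). TRIM22 read 2.71 to 2.87.

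IFI6, a mitochondrial protein linked to resistance to apoptosis, had the largest rise of the 38 with SAHA and with both drugs, though not with pargyline. It read 5.68, 5.42 and 5.18 with DMSO, 8.85, 8.90 and 8.84 with SAHA, 6.30, 6.35 and 5.99 with pargyline, and 8.70, 8.76 and 8.80 with both drugs. Pargyline arrays lay a little above the DMSO arrays, and all arrays with SAHA lay well above both. IFI6 rose by 3.44 ± 0.12 with SAHA (adjusted p = 3.34e-08), a 10.8-fold rise, by 0.79 ± 0.12 with pargyline (adjusted p = 0.00265) and by 3.33 ± 0.12 with both drugs (adjusted p = 3.1e-08). IFI27, of the same gene family, and XAF1, which opposes an inhibitor of apoptosis, stayed at 1.63 to 1.69 and 2.36 to 2.51.

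IFI35, which forms a cytoplasmic complex with NMI, read 7.93, 7.79 and 7.62 with DMSO, 3.31, 3.29 and 3.19 with SAHA, 8.58, 8.11 and 8.26 with pargyline, and 5.41, 5.81 and 5.49 with both drugs. Its 4 groups did not overlap: pargyline was the highest and SAHA the lowest, with the combination near the middle. IFI35 fell by 4.52 ± 0.14 with SAHA (adjusted p = 1.47e-08) and by 2.21 ± 0.14 with both drugs (adjusted p = 7.58e-07). It rose by 0.54 ± 0.14 with pargyline (adjusted p = 0.0278), which was lost without DMSO replicate 2 or 3 or pargyline replicate 1 or 3 (adjusted p from 0.0642 to 0.084).

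IFI44, a cytoplasmic protein of uncertain mechanism, read 9.79, 9.72 and 9.54 with DMSO, 4.88, 4.91 and 6.60 with SAHA, 9.98, 10.24 and 10.01 with pargyline, and 7.05, 7.02 and 7.59 with both drugs. SAHA replicate 3 was higher than the other two but still below every array with both drugs. IFI44 fell by 4.22 ± 0.40 with SAHA (adjusted p = 1.31e-05) and by 2.47 ± 0.40 with both drugs (adjusted p = 0.000457). A further probe set for IFI44 had a mean of 2.36 and changed by -0.03 with SAHA, at a level with little signal. Its neighbour IFI44L, the antiviral enzyme gene RSAD2 and the viral tether gene BST2 were among the 8 dimmest.

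The combination was then set against SAHA alone, to see what pargyline added in cells that received SAHA. Of the 38 genes, 4 rose, 0 fell and 34 did not pass in limma, where 7.88% of all genes rose and 8.71% fell. At an unadjusted p under 0.05, 12 were higher and 0 lower. The share of all genes at that threshold was not counted, so these counts have no background to be set against. The median was 0.01, against -0.02 over all genes. IFI35 was 2.31 ± 0.14 higher with both drugs (adjusted p = 0.000187), IFI44 1.75 ± 0.40 higher (adjusted p = 0.0159), EIF2AK2 0.74 ± 0.20 higher (adjusted p = 0.031) and USP18 higher as given above. All 4 had fallen with SAHA alone and remained below DMSO with both drugs. The comparisons of SAHA with DMSO and of both drugs with SAHA share the SAHA arrays. A low reading on those arrays favours a fall in the first and a rise in the second. The EIF2AK2 call was lost without SAHA replicate 1 or 2 or COMBO replicate 2 or 3 (adjusted p from 0.0877 to 0.104). The IFI44 call was lost without SAHA replicate 1 (0.0552) or SAHA replicate 2 (0.0589), so that the count was 2 without either of these SAHA arrays. The share of all genes in those 2 runs is not given here. The further probe set of EIF2AK2 gave a smaller difference of 0.38 ± 0.13. GBP1 did not pass (0.50 ± 0.22, adjusted p = 0.164) but did with the mean of its probe sets (0.78, adjusted p = 0.0193), and its further probe set gave 1.065 ± 0.222. GBP2 did not pass (0.58 ± 0.22, adjusted p = 0.122) but did without DMSO replicate 3 (adjusted p = 0.0031). With 3 arrays per group, the 95% interval for IFIT3 was 0.10 to 0.80 (adjusted p = 0.0818) and that for IFIT2 -0.58 to 0.69. With the replicate block 6 rose, where 9.77% of all genes did, and IFITM2 (0.20, adjusted p = 0.0412) and ISG20 (0.73, adjusted p = 0.0417) were the 2 added.

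Against pargyline alone, the combination lowered 22 of the 38 genes and raised 4, where 23.6% of all genes fell and 23.9% rose, with a median of -0.63 against 0.00 over all genes. SAHA against pargyline also gave 22 lower and 4 higher, where 22.7% of all genes fell and 23.4% rose, with a median of -0.60 against 0.02. ISG20 showed a wide gap here, at 2.50 ± 0.25 lower with SAHA than with pargyline (adjusted p = 1.86e-05), and so did IFI16, at 2.33 ± 0.27 lower (adjusted p = 5.66e-05). IFI6, ISG15, UBE2L6 and SAMHD1 were the 4 higher genes in both comparisons. GBP2 differed by 0.50 between the combination and pargyline, which did not pass.

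The interaction asks whether the effect of both drugs differed from the sum of the single effects on the log2 scale. It was above 0 for 1 of the 38 genes and below 0 for 2, where 1.28% of all genes were above and 2.44% below. The median was -0.04, against 0.00 over all genes. IFI35 had an interaction of 1.77 ± 0.20 (adjusted p = 0.00283): its fall with both drugs was smaller than the sum. UBE2L6 had -0.75 ± 0.11 (adjusted p = 0.0092) and IFI6 -0.90 ± 0.17 (adjusted p = 0.025), and both rose less with both drugs than the sum. The IFI6 call was lost with quantile normalization (adjusted p = 0.0546) and without DMSO replicate 2, SAHA replicate 1 or 2, pargyline replicate 1, or COMBO replicate 1 or 2 (0.0535 to 0.0623). The interaction of GBP2 was -1.06 ± 0.32 (adjusted p = 0.112) and passed without DMSO replicate 3 (-1.38, adjusted p = 0.00168), and that of IFI44 was 1.36 ± 0.56 (adjusted p = 0.251) and passed without SAHA replicate 3 (1.93, adjusted p = 0.00608). For OAS1, which was dim, it was -0.83 ± 0.20 (adjusted p = 0.0602) and passed without pargyline replicate 1 (-0.65, adjusted p = 0.0463), without pargyline replicate 2 (-1.02, adjusted p = 0.00291) and without the lowest tertile of genes (adjusted p = 0.0373).

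**Figure D4:**
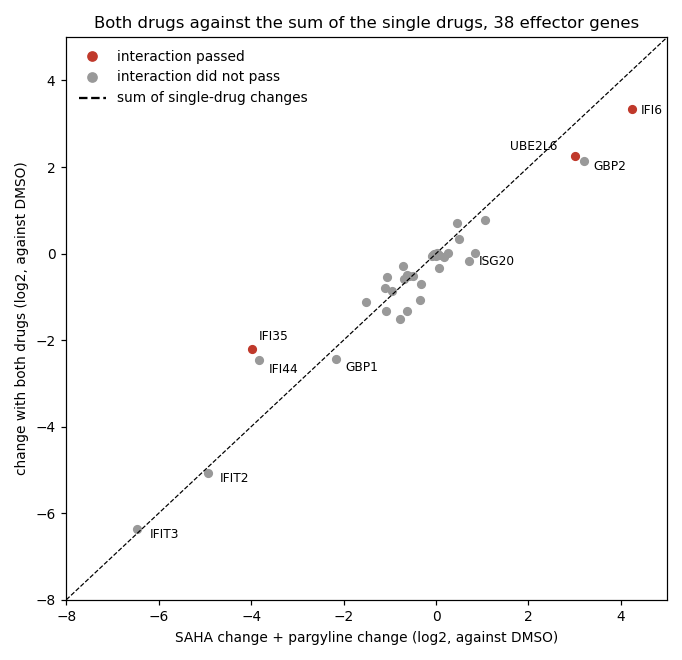
Log2 fold change with both drugs against DMSO (vertical) plotted against the sum of the changes with SAHA and with pargyline (horizontal) for the 38 effector genes. The dashed line is where the combination equals the sum. IFI35 lies above the line, UBE2L6 and IFI6 lie below it, and these 3 are the genes in red, whose interaction passed. IFIT2 and IFIT3 lie at the lower left, where both were at the bottom of the scale with SAHA and with both drugs, so their distance from the line says little.

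Neighbours on a chromosome did not always get the same call. IFIT2 and IFIT3 fell with SAHA while IFIT1, beyond IFIT1B, did not pass. GBP1 fell and GBP2 rose. HERC6 fell and HERC5 did not pass. Of the adjacent pairs IFI44 and IFI44L, MX1 and MX2, and OAS3 and OAS2, the second was among the 8 dimmest genes. Differences between neighbours were not tested, since different probe sets have no common scale.

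A further probe set was listed for 12 of the 38 genes, 18 in all. Of 16 that belong to the genes called with SAHA, 15 had the sign of the main probe set. The exception was 1 for IFIH1, at 0.00 with a mean of 2.64. With pargyline 4 of 4 and with both drugs 13 of 13 had the same sign.

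The pathway upstream was read from a list of 24 signalling genes, of which 21 were measured. With SAHA 9 of the 21 rose and 5 fell (23.0% and 23.1% of all genes), so the share that fell was that of all genes. With pargyline 2 rose and 0 fell in limma, where 8.48% of all genes rose and 7.45% fell. At an unadjusted p under 0.05 the counts were 3 and 0, and the share of all genes at that threshold was not counted. With both drugs 9 rose and 3 fell (24.3% and 24.0% of all genes). IRF9, the DNA-binding subunit of the complex named above, read 6.69, 6.63 and 6.84 with DMSO and 6.87, 6.70 and 5.99 with SAHA, a difference of -0.20 (95% interval -0.72 to 0.31). IRF1, a transcription factor that also binds the response element, rose by 1.02 ± 0.14 with SAHA (adjusted p = 0.000136) and by 1.61 ± 0.14 with both drugs. IRF7, the factor that amplifies interferon production, rose by 1.62 ± 0.41 with SAHA (adjusted p = 0.00764), from 5.14, 4.94 and 4.85 to 7.03, 7.01 and 5.75, where SAHA replicate 3 was the lowest.

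The kinase gene JAK1 rose by 0.79 ± 0.05 with SAHA (adjusted p = 1.31e-06), STAT3 by 0.99 ± 0.10 (adjusted p = 2.2e-05), and PIAS1, an inhibitor of STAT signalling, by 1.17 ± 0.13 (adjusted p = 3.18e-05). IFNGR2, a chain of the interferon gamma receptor, fell by 1.41 ± 0.23 (adjusted p = 0.000636). So while 19 of the 38 effector genes fell, several genes of the signalling step were higher with SAHA.

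Of 20 sensing and interferon genes, 16 were measured. With SAHA 1 rose and 6 fell (23.0% and 23.1% of all genes). With pargyline 3 rose and 0 fell in limma, where 8.48% of all genes rose and 7.45% fell. At an unadjusted p under 0.05 the counts were 5 and 0, and the share of all genes at that threshold was not counted. With both drugs 3 rose and 4 fell (24.3% and 24.0% of all genes), and the share that fell was near that of all genes. RIGI, a sensor of viral RNA, fell by 2.32 ± 0.27 with SAHA (adjusted p = 5.02e-05), and the adaptor genes MYD88 and TRAF3 fell by 1.56 ± 0.13 and 1.00 ± 0.14 (adjusted p = 6.06e-06 and 0.000148). TLR3, a receptor for double-stranded RNA, read 5.16, 4.82 and 5.85 with DMSO, 2.57, 2.63 and 2.53 with SAHA, 6.93, 7.12 and 6.79 with pargyline, and 2.58, 2.57 and 2.43 with both drugs. It fell with SAHA by 2.70 ± 0.21 (adjusted p = 3.87e-06) and rose with pargyline by 1.67 ± 0.21 (adjusted p = 0.00103). MAVS, the adaptor of RIGI, rose by 0.63 ± 0.15 with both drugs (adjusted p = 0.00493). IKBKE, a kinase that acts on interferon regulatory factors, fell by 0.71 ± 0.24 with SAHA at a dim level (adjusted p = 0.033, lost without DMSO replicate 2 or 3 or any 1 of the SAHA arrays). The interferon genes IFNA1, IFNB1 and IFNG, named after their values were seen, had group means between 1.95 and 2.70 in all 4 groups and did not pass in any comparison with DMSO.

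Of 47 other interferon-induced genes, 32 were measured. With SAHA 5 rose and 10 fell (23.0% and 23.1% of all genes), and with pargyline 8 rose and 1 fell (8.48% and 7.45% of all genes). With both drugs 5 rose and 7 fell (24.3% and 24.0% of all genes), and the share that fell was near that of all genes. NMI, the partner of IFI35, read 11.10, 11.22 and 11.25 with DMSO, 6.04, 5.89 and 6.85 with SAHA, 11.59, 11.52 and 11.44 with pargyline, and 5.38, 5.32 and 6.58 with both drugs. NMI fell by 4.93 ± 0.34 with SAHA (adjusted p = 1.52e-06) and fell by 5.43 ± 0.34 with both drugs (adjusted p = 6.62e-07), and the values with both drugs overlapped those with SAHA, unlike those of IFI35. DDX60, a helicase that promotes RNA sensing, fell by 3.18 ± 0.29 with SAHA (adjusted p = 1.06e-05) and rose by 1.23 ± 0.29 with pargyline (adjusted p = 0.0194). The rise was lost without DMSO replicate 1 or 2 or pargyline replicate 2 or 3 (adjusted p from 0.0536 to 0.0737). TRIM14 fell by 1.40 ± 0.14 with SAHA (adjusted p = 2.34e-05).

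PSMB9, a subunit of the immunoproteasome, rose by 2.61 ± 0.16 with SAHA (adjusted p = 8.3e-07) and by 1.35 ± 0.16 with pargyline (adjusted p = 0.000747). APOL6, an apolipoprotein L gene, read 5.35, 4.96 and 5.60 with pargyline and 2.36 to 2.77 on the other 9 arrays, a rise of 2.70 ± 0.14 (adjusted p = 1.28e-05). SLFN12 rose by 2.01 ± 0.09 with SAHA (adjusted p = 1.41e-07). Medians of the 3 lists with SAHA were 0.10 for signalling, -0.01 for sensing and -0.01 for the other induced genes, beside -0.54 for the 38 effector genes. Several sensing and other induced genes stayed under 2.79 in every group, as did 8 of the effector genes. Examples, named after their values were seen, are IFNA1, IFNB1, CXCL9 and CXCL10. No fall could be read for such genes, and they add changes near 0 to a median. Medians without them were not computed, so these medians do not show that the fall was particular to the effector genes.

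**Figure D5:**
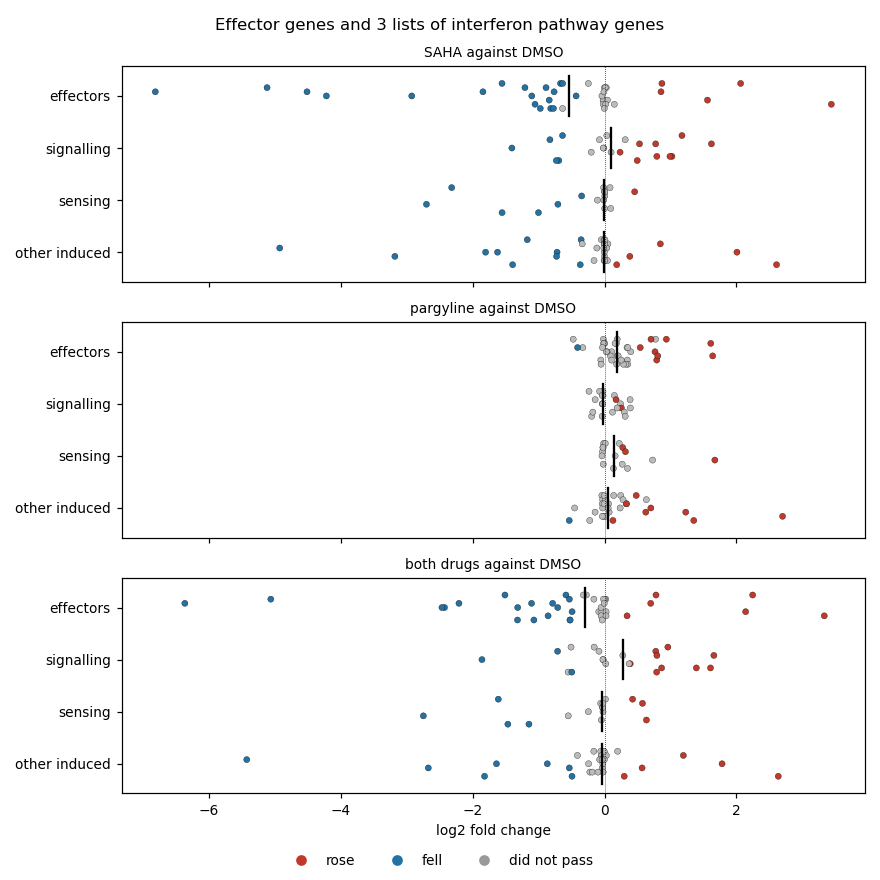
Log2 fold change of the 38 effector genes and of 21 signalling, 16 sensing and interferon, and 32 other interferon-induced genes, in the 3 comparisons with DMSO. Each point is a gene, black bars are list medians, and colours give genes that rose, fell or did not pass. With SAHA the median of the effector genes is -0.54 and that of the signalling genes 0.10, and with pargyline they are 0.19 and -0.03.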

How the data were processed

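Total RNA of 12 MDA-MB-231 samples was purified on RNeasy columns with a DNase step and labelled with biotin through a MessageAmp Premier reaction, per the labels' protocols. The authors deposited log2 expression values for 22277 probe sets. The submitters' processing notes name RMA, which subtracts a modelled background, normalizes between arrays and summarizes the probes of each set. The software version, and whether all arrays were normalized together, are not given in the sources used here. The table carries no detection calls.

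Probe sets were named from the platform annotation. In all, 62 were controls, 19064 were listed for 1 gene and 1043 for several, and the last kind was left out. Each gene was read through its brightest probe set by mean over the 12 arrays, which gave 11963 genes. No filter on low values was set. A mean for each of the 4 groups was fitted to all arrays with limma 3.58.1 in R 4.3.3 (lmFit, eBayes, two-sided), and p-values were adjusted by Benjamini-Hochberg over all 11963 genes in each of the 7 comparisons. A gene rose or fell where the adjusted p was under 0.05. Errors given with a log2 fold change are this fit's standard errors. The procedure was tested on simulated data.

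The genes described, their roles, the pathway and marker lists, the motifs and the tests were chosen with earlier results of these data known. All 38 effector genes may be named, and from each pathway list up to 6 genes with the largest change among those that passed against DMSO, and IRF9, IRF1 and IRF7 in any case. The alternatives tried were quantile normalization, array median centring, no genes of the lowest tertile, a mean over a gene's probe sets, a change of at least 2-fold, the replicate number as a block, and leaving out each array in turn. Deviations of same-numbered samples from their group means correlated at 0.081 to 0.535, above 0.1 in 13 of 18 pairs, and the labels give the number no further meaning. All 3 pairs were above 0.1 for pargyline with DMSO (0.122 to 0.268) and for the combination with SAHA (0.257 to 0.535), so results of these 2 comparisons whose call the block changes are given with both values. In the other comparisons at least 1 pair was at or below 0.1. The number of arrays limits the precision.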

Additional observations from a re-analysis of the deposited data

Results flagged for a closer look

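For 3 of the 38 effector genes the effect of SAHA differed with and without pargyline by limma's test of the interaction. Of all genes, 1.28% had an interaction above 0 and 2.44% had one below 0. The effect with pargyline minus that without was 1.77 for IFI35, -0.90 for IFI6 and -0.75 for UBE2L6 on the log2 scale, with adjusted p of 0.00283, 0.025 and 0.0092. The interaction also passed for 3 of the 69 measured pathway genes (4.35%), all below 0, where 2.44% of all genes lay below 0. For APOL6 it was -2.76 (adjusted p = 0.000286), for TLR3 -1.72 (adjusted p = 0.0176) and for PSMB9 -1.33 (adjusted p = 0.0166). APOL6 and TLR3 were higher than DMSO with pargyline alone and near the bottom of the scale in both groups with SAHA. The group means of APOL6 were 2.61 with DMSO, 2.44 with SAHA and 2.38 with both drugs, and those of TLR3 were 2.57 with SAHA and 2.53 with both drugs. At that level no larger fall could be read, so these 2 interactions do not show that SAHA acted differently with pargyline.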

How the results depend on the processing

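With a change of at least 2-fold as a further condition, SAHA raised 3 and lowered 10 of the 38 genes. Pargyline raised 2 and lowered 0. Both drugs raised 3 and lowered 10 against DMSO, raised 2 against SAHA and lowered 12 against pargyline, and 0 interactions lay below 0. The share of all genes that met this condition was not counted. The number lowered by pargyline, 1 as reported, was 2 with quantile normalization, where 8.24% of all genes fell. It was 2 without the lowest tertile of genes and 2 with the mean of all probe sets, settings for which the share of all genes is not given here. After centring arrays on their medians it was 8, where 51.6% of all genes fell. Centring gave 29 genes lowered by both drugs, where 62.9% of all genes fell. Quantile normalization gave 1 interaction below 0, where 2.17% of all genes had one. Centring reversed IFI27 with both drugs (-0.15), BST2 with pargyline (-0.13) and BST2 with both drugs (-0.14), all dim genes. It shifted the median over all genes to -0.10 for SAHA, -0.15 for pargyline and -0.17 for the combination. Among log2 fold changes of single genes, pathway genes included, these settings and the block made 60 pass that had not and 9 not pass that had, and leaving out an array 55 and 104. The cause of these differences was not tested.

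Leaving out each array in turn gave, against DMSO, 5 to 5 genes raised and 17 to 19 lowered by SAHA, 5 to 10 raised and 0 to 2 lowered by pargyline, and 5 to 6 raised and 15 to 18 lowered by both drugs. Against SAHA alone the combination raised 2 to 6 and lowered 0 to 1, and against pargyline alone 4 to 5 and 21 to 23. SAHA against pargyline gave 4 to 4 and 19 to 22, and the interaction 1 to 2 above and 1 to 3 below 0. The shares of all genes in these runs are not given here. With the replicate block, the combination raised 6 and lowered 19 genes against DMSO, where 25.4% of all genes rose and 26.8% fell. OASL (adjusted p = 0.0256) and IFIH1 (0.0257) were added and none was lost. MX1 was lost with SAHA (0.0543), and IFI44L passed in the combination against pargyline (0.0362). Beside these and the calls given for pargyline against DMSO and the combination against SAHA, the block changed no call of the 38 genes. Of the pathway genes, DDX60 (0.0231) and RIGI (0.0484) passed with the block in the combination against SAHA. All 12 samples correlated best with their own replicate number, a hint from the data and not from the design. Values near 2 to 3 limit what a fall can show.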
